A study of Mus musculus with 18 samples.

Results

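Unstimulated bone marrow-derived macrophages lacking Irf4 were compared with heterozygous controls. The comparison uses 6 of the 18 single-colour arrays of the series, namely the 3 samples titled Irf4-/- Mock and the 3 titled Irf4+/- Mock, which were picked by these titles and paired by their experiment letter, A, B or C. Marrow came from C57BL6/J mice aged 8 to 12 weeks, and each experiment used littermates. The cells of several animals (the labels list 2 males and 1 female) were pooled, grown in medium with 200 ng/ml human rCSF1, a macrophage growth factor, and on day 7 kept for 18 h without IL-4. On the other 12 arrays are both genotypes after IL-4 (10 ng/ml), taken at either 4 h or 18 h. The controls carry 1 disrupted Irf4 allele, so the comparison is of none against 1 intact copy, and no wild-type sample is part of it. A sample is a pool of animals, and n = 3 means 3 such pools.

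IRF4 is a transcription factor of the interferon regulatory factor family. It binds DNA weakly alone and more strongly beside ETS-family partners such as PU.1, and it is best known from plasma cells, activated T cells, dendritic cells and macrophages exposed to IL-4. MHC class II molecules, which present peptides to CD4+ T cells, are a main product of antigen-presenting cells. Their genes share a promoter module, called the S-X-Y module, on which the RFX complex, CREB and NF-Y assemble and recruit the coactivator CIITA, whose amount largely sets how much class II a cell makes.

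Levels below are log2 of the background-subtracted signal minus the 75th percentile of that array, so 0 is a gene as bright as that percentile. A difference is the Irf4-/- level minus the Irf4+/- level, with the standard error (SE) of a limma fit over all 18 arrays with the experiment as a block. A gene is called when its p-value, adjusted by Benjamini and Hochberg over 15271 genes, is under 0.05. On the 6 mock arrays, between 64.7% and 73.2% of spots were well above background. The 75th percentile of intensity was 1961 on the Irf4-/- array of experiment A and between 816 and 1335 on the other 5 mock arrays. The arrays of experiment A were also scanned in different sessions for the genotypes, while those of B shared a session and those of C shared another. The 6 mock arrays lay on 6 slides, and in A and B every slide held arrays of 1 genotype, so there slide and genotype cannot be told apart. A single slide of the series, in experiment C, held both genotypes: the Irf4-/- mock array and the Irf4+/- array at 18 h of IL-4. A fit with slide as a fixed block, given below as an alternative, takes the genotype difference through that slide alone. Macrophage markers were bright on all 6 arrays. Lyz2 lay between 7.08 and 8.27, Adgre1, which encodes F4/80, between 6.73 and 7.76, and Csf1r, the receptor for the growth factor in the medium, between 5.92 and 6.69.

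The Irf4 signal itself was not lower in the samples labelled Irf4-/-. It was -1.15, -0.36 and -1.80 in Irf4+/- experiments A, B and C, and -0.97, -0.53 and -0.81 in Irf4-/- experiments A, B and C. The groups overlapped, and the difference was 0.34 ± 0.30 (SE, n = 3 per group, limma adjusted p = 0.632). The array holds 1 Irf4 probe. No label or file says whether that probe lies inside the disrupted stretch, so its signal does not check the genotype labels.

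Few genes were called between the genotypes before stimulation. Of 15271 genes, 5 were called (0.0327%), with 4 lower and 1 higher in Irf4-/- cells. Of the 4 lower genes, H2-Eb1, H2-Ab1 and H2-Aa, encode chains of the MHC class II molecules I-E and I-A, and the last, Arrdc5, belongs to the arrestin domain family. The higher gene was Slc26a4, which encodes the anion exchanger pendrin. Without the experiment as a block, limma called 0 genes (358 at an unadjusted p under 0.05, 49 higher and 309 lower). The count was also 0 with quantile normalization, with normexp background correction, in a fit of the 6 mock arrays alone, and without any single pair, without either array of experiment A, or without the Irf4-/- array of B or of C. It was 2 without the Irf4+/- array of B and 4 without that of C. In the fit with the block, at an unadjusted p under 0.05, 1482 genes were lower (9.70% of those tested) and 657 were higher (4.30%). The median over all genes was -0.06, and the lower values gathered among dim genes. When genes were split by level into 4 equal groups, in the dimmest group the median difference was -0.28, with 679 lower and 34 higher at that p, whereas in the brightest group it was -0.01, with 136 lower and 170 higher. The balance also moved with the scaling, to 1080 lower and 871 higher after median scaling and to 961 lower and 915 higher after quantile normalization. With normexp it was 397 lower and 191 higher, and the median over all genes moved to 0.09. The genotype values did not overlap for 1046 genes (6.85%), 796 of them lower and 250 higher.

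**Figure D1:**
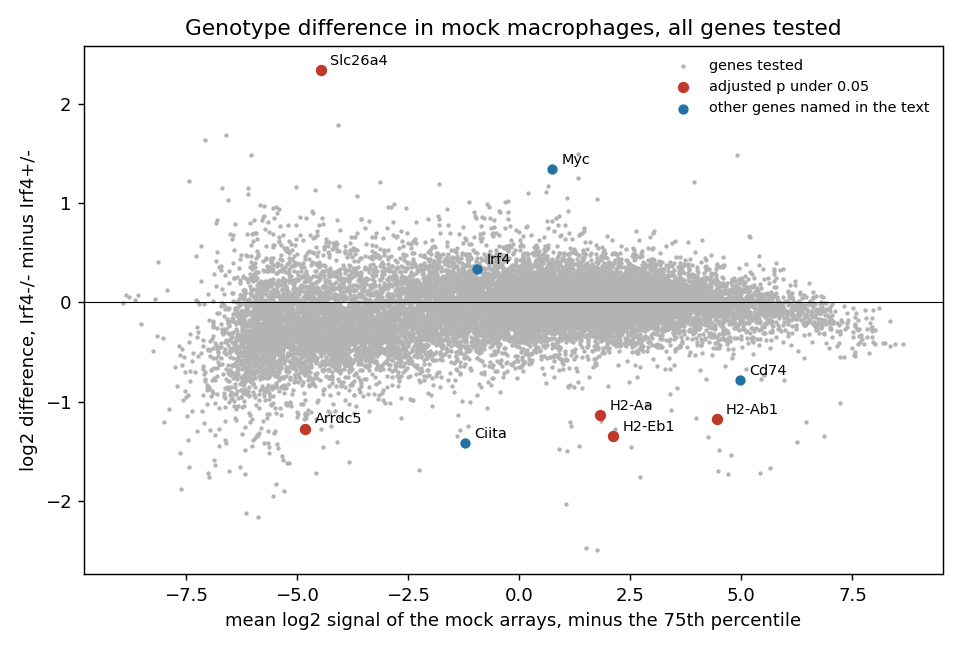
Log2 difference between Irf4-/- and Irf4+/- mock macrophages (vertical axis) against the mean level of the 6 mock arrays (horizontal axis, log2 minus the 75th percentile), with a point for each of 15271 genes. Red points are the 5 called genes, of which H2-Ab1 is the brightest, and the grey cloud sits below 0 at its dim left end, where the median of the dimmest of 4 equal groups is -0.28.

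The class II chain genes were lower in all 3 experiments. H2-Ab1, the I-A beta chain gene, was at 5.82, 5.30 and 3.98 in Irf4+/- experiments A, B and C, and at 4.72, 3.66 and 3.20 in Irf4-/- experiments. It fell by 1.10, 1.64 and 0.78 within the pairs, and the fitted difference was -1.17 ± 0.15, or 2.26-fold (limma adjusted p = 0.0198). H2-Aa, the I-A alpha chain gene, was at 3.73, 2.24 and 1.21 against 2.75, 0.81 and 0.22, a difference of -1.13 ± 0.17 or 2.19-fold (adjusted p = 0.0382). H2-Eb1, the I-E beta chain gene, was at 3.57, 2.98 and 1.83 against 2.49, 1.05 and 0.79, a difference of -1.35 ± 0.17 or 2.55-fold (adjusted p = 0.0198). For all 3 genes experiment A was the highest and experiment C the lowest in both genotypes, so the groups overlapped although every pair went the same way. The spread between experiments, with SDs from 0.78 to 1.32, was close to the size of the genotype difference. The calls therefore needed the experiment as a block: without it none of these genes was called (adjusted p = 1 for each). Pairing the mock arrays was not enough. With a block by letter and condition, the limma adjusted p was 0.228 for H2-Eb1, 0.272 for H2-Ab1 and 0.228 for H2-Aa. In a fit of the mock arrays alone with the experiment as a block it was 0.521 for each. The calls thus rest on a block and an error shared with the stimulated arrays. The other kept probes of these genes gave differences of -1.32, -1.18 and -1.26 for H2-Ab1 and -1.28 for H2-Aa. H2-Ea, the I-E alpha chain gene, was on the array but not above background.

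**Figure D2:**
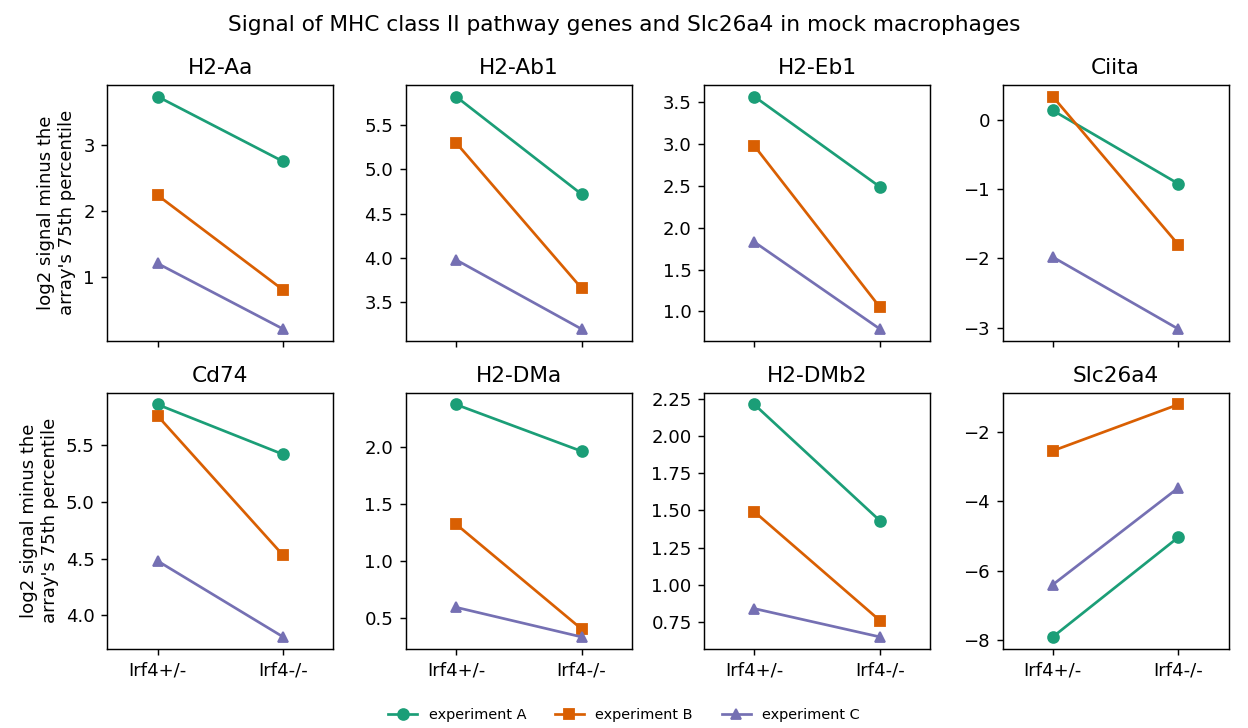
Level of 8 genes on each mock array (vertical axis, log2 signal minus the 75th percentile of the array) by genotype (horizontal axis), with a line joining the 2 arrays of an experiment. Every line of the 7 class II pathway genes goes down from Irf4+/- to Irf4-/-, and every line of Slc26a4 goes up.

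Ciita, the gene of the class II coactivator, had values of the same size. Its levels were 0.14, 0.34 and -1.98 in Irf4+/- experiments A, B and C and -0.92, -1.80 and -3.02 in Irf4-/- experiments. All 3 pairs were lower in Irf4-/- cells, by 1.06, 2.14 and 1.03, but the gene was not called (-1.41 ± 0.23, adjusted p = 0.0844). Cd74, which encodes the invariant chain that guards the class II groove until peptide is loaded, was at 5.86, 5.76 and 4.48 against 5.42, 4.53 and 3.81 (-0.78 ± 0.17, adjusted p = 0.276). The genes of the peptide-loading chaperone H2-DM gave -0.53 ± 0.16 for H2-DMa and -0.57 ± 0.18 for H2-DMb2, neither called. H2-DMb1, a near-identical neighbour of H2-DMb2 whose signals the probes may share, stood out in experiment A, in mock and after IL-4. It was at 2.62, 3.82 and 3.26 in Irf4+/- cells and at 3.35 and 3.02 in Irf4-/- experiments B and C, but at -1.02 in Irf4-/- experiment A. The difference in A was -3.65 in mock, -4.10 at 4 h of IL-4 and -5.00 at 18 h, while after IL-4 it ranged from -1.05 to -0.35 in B and C. H2-Ob, a subunit of the H2-DM inhibitor H2-DO, was likewise lowest on the Irf4-/- mock array of experiment A. It was at -7.34 there, against a range of -5.16 to -4.39 on the other 5 mock arrays.

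The DNA-binding partners of CIITA and the enzymes of the class II pathway gave no call. Rfx5, the subunit of the RFX complex that binds the X box, gave -0.35 ± 0.12 (adjusted p = 0.288), with -2.52, -2.64 and -2.81 against -3.14, -2.98 and -2.89, which did not overlap, and its other kept probe gave -0.68. The other RFX subunits gave -0.21 ± 0.15 for Rfxank and -0.10 ± 0.09 for Rfxap. Ctss, the protease that trims the invariant chain, gave -0.41 ± 0.20, and Ifi30, the lysosomal thiol reductase, -0.09 ± 0.16. Of 16 listed class II genes 15 were tested. All 15 had a difference below 0, 13 were lower in every pair, 3 were called and 8 had an unadjusted p under 0.05. Over all genes 59.6% were below 0, 21.4% were lower in every pair, 0.0327% were called and 9.70% were lower at that p. Their median was -0.57, against -0.06 over all genes, and by experiment it was -0.78 in A, -0.47 in B and -0.23 in C. With slide as a fixed block, where the genotype difference runs through the slide of experiment C that held both genotypes, it was -0.08. Fewer cells carrying class II and less class II RNA per cell cannot be told apart in these bulk samples.

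To show what the class II genes share beyond their level, the stretch from 110 to 21 bases before the gene start is printed for 6 of them, from the RefSeq promoter table (GRCm38.p6). Capitals mark every match to GATTGG on either strand, the core of the Y box that NF-Y binds (its reverse complement reads CCAATC). The sequences run 5′ to 3′ on the strand of the gene.
H2-Aa, chr17:34287844-34287933, minus strand: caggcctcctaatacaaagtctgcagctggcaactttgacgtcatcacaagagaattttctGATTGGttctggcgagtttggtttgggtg
H2-Eb1, chr17:34305757-34305846, plus strand: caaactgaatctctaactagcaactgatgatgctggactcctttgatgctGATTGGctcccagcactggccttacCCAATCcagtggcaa
H2-DMb1, chr17:34153081-34153170, plus strand: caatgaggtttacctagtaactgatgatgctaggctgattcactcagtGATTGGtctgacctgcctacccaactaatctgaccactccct
H2-DMb2, chr17:34145139-34145228, plus strand: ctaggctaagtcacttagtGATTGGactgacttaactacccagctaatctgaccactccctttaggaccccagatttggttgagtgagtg
H2-Oa, chr17:34092269-34092358, plus strand: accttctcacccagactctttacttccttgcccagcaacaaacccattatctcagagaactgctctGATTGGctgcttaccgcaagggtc
H2-Ob, chr17:34238795-34238884, plus strand: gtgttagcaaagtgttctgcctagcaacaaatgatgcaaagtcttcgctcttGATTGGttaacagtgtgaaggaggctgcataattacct
Of 15 tested class II genes, 11 matched an entry of that table by symbol. H2-Ab1, Cd74, Ciita and Rfxap had no entry, so their promoters were not searched for any of these elements. In 7 of these 11 a match lay within this stretch (the 6 above and Rfx5), against 8.20% of 32544 distinct promoters. H2-Oa, which has the match, gave a difference of -0.30 ± 0.18. The IRF element GAAANNGAAA was found in the 300-base promoter of 1 of the 11 genes, Ctss, against 3.45% of all promoters, and the ETS-IRF composite element GGAANNGAAA in none of them, against 2.73% of all. A match is only a run of letters, and no binding was measured.

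Outside the class II pathway, Arrdc5 and Slc26a4 were called. Arrdc5 was dim, at -3.50, -4.39 and -4.65 in Irf4+/- experiments A, B and C and at -4.78, -5.54 and -6.03 in Irf4-/- experiments. The groups did not overlap, and the difference was -1.27 ± 0.16 (adjusted p = 0.0198). With normexp background correction the value was 0.24, and it was -0.71 when normexp was fitted without the few spots (no more than 8 on any array) whose signal lay far under the background around them. Slc26a4 had the widest spread between experiments of the 5 called genes. It was at -7.92, -2.54 and -6.41 in Irf4+/- cells and at -5.04, -1.20 and -3.61 in Irf4-/- cells, and in Irf4+/- cells 2 of 3 arrays had it well above background. Each pair was higher in Irf4-/- cells, by 2.88, 1.34 and 2.79, giving 2.34 ± 0.34 or 5.05-fold (adjusted p = 0.0382), and 0.93 or 0.63 with these forms of normexp. With the cell pool taken as random neither gene was called (adjusted p = 0.204 for Arrdc5 and 0.169 for Slc26a4), nor with a block by letter and condition (0.0565 and 0.228). Its promoter holds an IRF element, shown here in capitals from 170 to 111 bases before the start (chr12:31560095-31560154, minus strand, GRCm38.p6).
Slc26a4: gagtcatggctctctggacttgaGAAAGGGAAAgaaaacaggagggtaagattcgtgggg

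Next in order of p, with the same sign in every pair but not called, came mostly dim genes on the lower side. Usp43, a ubiquitin protease gene, gave -1.19 ± 0.19 (adjusted p = 0.0747). It was well above background on all 3 Irf4+/- arrays and on no Irf4-/- array. Zhx2, a zinc finger homeobox gene, gave -1.59 ± 0.32 and was in the same position. Their Irf4-/- signals were also raised, where lower, to the lowest signal well above background on the array. Usp43 was then 1.59-fold and Zhx2 1.46-fold lower in Irf4-/- cells. That floor is the lowest over all probes of an array, so these folds are not strict bounds. Il2, the T cell growth factor gene, gave -0.79 ± 0.16, the small heat shock protein gene Hspb9 -0.64 ± 0.12 and the activin receptor gene Acvr2b -0.56 ± 0.11, each with adjusted p = 0.276. With normexp the values of Usp43, Zhx2, Il2 and Acvr2b were above 0, and with normexp without those very dim spots they were -0.49, -0.67, -0.58 and -0.43. On the higher side the values were smaller and the genes brighter. 2810004N23Rik gave 0.56 ± 0.11, with levels of 1.78, 1.41 and 1.57 against 2.59, 2.02 and 1.82, and did not overlap. Wdr76 gave 0.62 ± 0.13, the splicing factor gene Srsf3 0.50 ± 0.11, Amd1, whose enzyme feeds polyamine synthesis, 0.45 ± 0.10, the proteasome subunit gene Psmc5 0.44 ± 0.10 and the volume-regulated anion channel gene Lrrc8b 0.48 ± 0.11. Agpat5, a phospholipid synthesis gene, gave 0.49 ± 0.11, Aen, a p53-induced nuclease gene, 0.50 ± 0.12 and Fam162a, a hypoxia-induced gene, 0.55 ± 0.13. Other kept probes gave less for several of these: 0.16 for Psmc5, 0.08 for Lrrc8b, 0.28 for Srsf3, and 0.04 and 0.34 for Aen. Of 139 genes of the lists and rankings with another kept probe, 20 had one of opposite sign. Counting also probes over the ratio 3 to 2 apart, the number was 86.

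The class II difference was also present after IL-4, on other arrays of the same experiments. At 4 h of IL-4, 4 genes were called between the genotypes (0.0262%), among them H2-Ab1 (-1.24 ± 0.15), H2-Eb1 (-1.24 ± 0.17) and H2-Aa (-1.22 ± 0.17), each with limma adjusted p = 0.0225. At 18 h 68 genes were called (0.445%), and 7 of the 15 class II genes were among them, all lower. These counts moved with the fit. At 4 h, 0 genes were called without the block, with a block by letter and condition, with quantile normalization, with normexp, or without the mock arrays of A or of C, and 2 with the cell pool taken as random. At 18 h the count was 4 without the block, 15 with letter and condition, 20 with pool as random and 3 with slide as a fixed block. It was 0 with normexp, 57 with normexp without a few very dim spots, and 31 to 37 without the mock arrays of 1 experiment. The count rose to 81 with median scaling and to 106 with quantile normalization. In the fit with the block, H2-Ab1 gave -1.59 ± 0.15 at 18 h, H2-Eb1 -1.58 ± 0.17, H2-Aa -1.47 ± 0.17 and Ciita -2.27 ± 0.23. H2-DMa (-1.20 ± 0.16, adjusted p = 0.00528), H2-DMb2 (-1.40 ± 0.18, adjusted p = 0.00525) and Cd74 (-0.93 ± 0.17, adjusted p = 0.0387), not called in mock, were called at 18 h. Whether the genotype difference at 18 h departs from that in mock was tested directly, and no gene was called (limma, 651 genes at an unadjusted p under 0.05), nor at 4 h (423 genes). The departure at 18 h was -0.86 ± 0.33 for Ciita and -0.42 ± 0.22 for H2-Ab1 (adjusted p = 1 for both). Arrdc5 went the other way, with -0.37 at 4 h and -0.29 at 18 h (adjusted p = 0.69 and 0.452), a departure of 0.98 ± 0.23 at 18 h that was not called (adjusted p = 0.806). Slc26a4 stayed above 0, at 0.97 ± 0.34 and 1.37 ± 0.34, and was not called at either time.

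**Figure D3:**
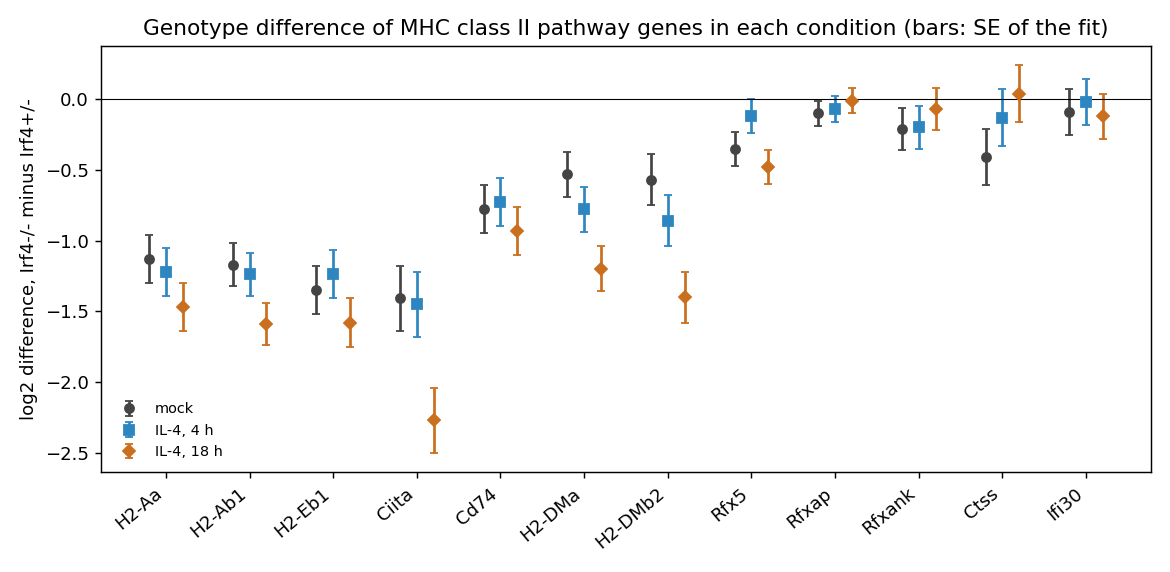
Log2 difference between Irf4-/- and Irf4+/- cells (vertical axis) for 12 class II pathway genes in mock and after 4 h or 18 h of IL-4, with points for the fitted value and bars for its SE. The first 7 genes sit below 0 in every condition, reaching -2.27 for Ciita at 18 h, while Rfxap and Ifi30 stay within 0.12 of 0.

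Growth-related gene lists sat above 0, without a called member. Over all genes 40.4% were above 0, 4.30% were higher at an unadjusted p under 0.05 and 11.8% were higher in every pair. All 34 DNA replication genes tested had a difference above 0, 12 at an unadjusted p under 0.05, with a median of 0.40, but only 19 were higher in every pair. The median was 0.96 in experiment B, 0.25 in A and 0.08 in C. Mcm2, a subunit of the replicative helicase, was at 1.64, 0.06 and 1.56 in Irf4+/- experiments A, B and C and at 2.44, 1.40 and 1.65 in Irf4-/- experiments (0.74 ± 0.25, adjusted p = 0.288). The Irf4+/- array of B was the low one, as it was for Pcna, the sliding clamp gene (6.25, 4.49 and 5.99 against 6.23, 5.49 and 6.01). The clamp loader gene Rfc5 gave 0.43 ± 0.12. The median without experiment B was 0.155. Ribosome biogenesis genes were above 0 in 22 of 22 (median 0.29, 7 at an unadjusted p under 0.05). Their medians were 0.35 in A, 0.62 in B and 0.00 in C, and -0.008 with slide as a fixed block. Nop58 and Gar1, both of small nucleolar ribonucleoproteins, gave 0.63 ± 0.20 and 0.54 ± 0.17. Of 28 mitosis genes 25 were above 0 (median 0.16), with Mad2l1 at 0.38 ± 0.15 and Bub1 at 0.42 ± 0.19. Of 24 cholesterol synthesis genes 20 were above 0 (median 0.22, and -0.006 without experiment B), with Idi1 at 0.66 ± 0.20 and Cyp51 at 0.38 ± 0.14.

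**Figure D4:**
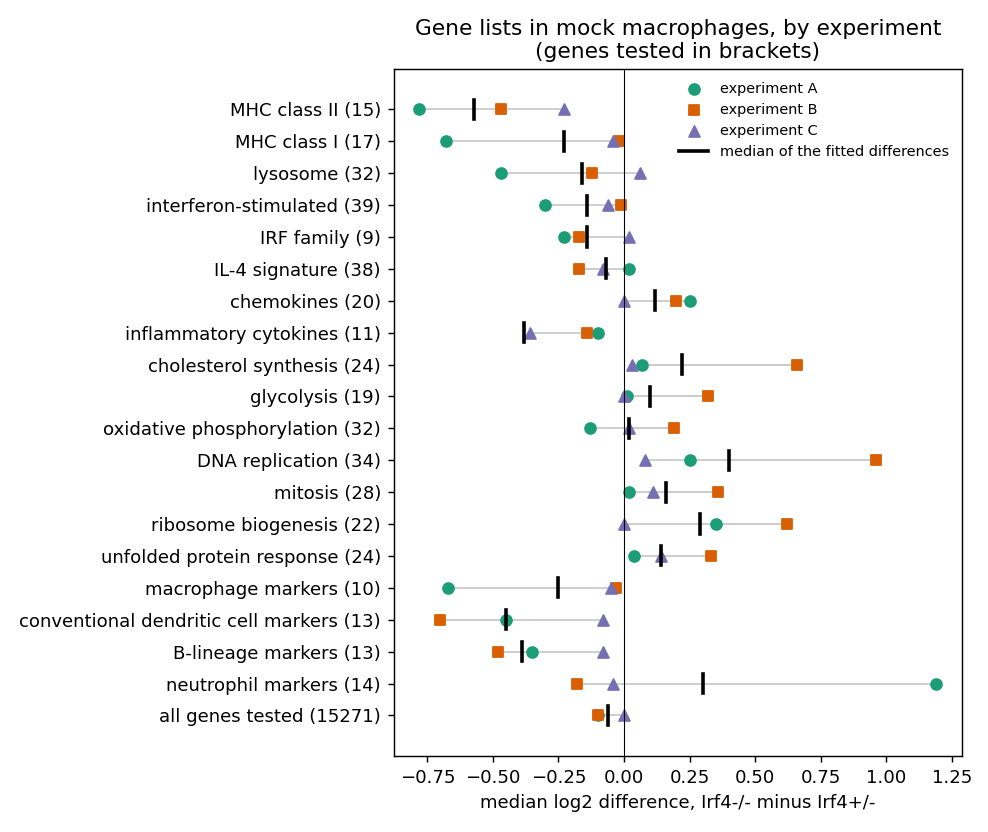
Median log2 difference between Irf4-/- and Irf4+/- mock cells over the genes of 19 lists and over all genes tested, for each experiment (coloured symbols) and for the fitted differences (black bars). The class II list is below 0 in all 3 experiments by at least 0.23, while DNA replication is led by experiment B and neutrophil markers by experiment A.

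Several growth and chemokine genes had values above 0 in experiments A and B and not, or less so, in C. Myc, a driver of cell growth, was at 0.31, -1.93 and 1.87 in Irf4+/- experiments A, B and C and at 2.01, 0.94 and 1.31 in Irf4-/- experiments. The difference was 1.34 ± 0.56 (limma adjusted p = 0.328), and its other kept probes gave 1.34 and 0.71. The Irf4+/- array of C was already as high as the Irf4-/- arrays. Ccl2, a monocyte attractant, was likewise highest in C and lowest in B among the Irf4+/- arrays, with 3.33, 2.39 and 6.77 against 4.72, 5.78 and 6.45 (1.49 ± 0.61). Its relatives Ccl7 and Ccl12 gave 1.50 ± 0.60 and 1.17 ± 0.47. Ccnd1, which encodes cyclin D1, was at 3.96, 1.52 and 4.50 against 4.96, 4.02 and 4.62 (1.21 ± 0.38), and the survival gene Bcl2 at -0.23, -0.88 and 1.27 against 0.85, 1.20 and 1.43 (1.11 ± 0.31). Bcl2l1, which encodes the related Bcl-xL, gave 0.77 ± 0.35 (0.33 and 0.27 by its other kept probes), the costimulatory ligand gene Tnfsf9 0.84 ± 0.39 and Cdh1, the E-cadherin gene, 0.77 ± 0.36. None was called, and Myc, Ccl12, Bcl2l1, Tnfsf9 and Cdh1 were below 0 with slide as a fixed block. Of 20 chemokine genes 13 were above 0 (median 0.12).

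The MHC class I, macrophage and lysosome lists were furthest below 0 in experiment A. The 17 MHC class I pathway genes had a median of -0.23, made of -0.68 in A, -0.02 in B and -0.04 in C. By its brightest probe H2-D1 was at 7.47, 7.99 and 7.92 in Irf4+/- experiments A, B and C and at 6.22, 7.94 and 7.74 in Irf4-/- experiments (-0.49 ± 0.23, with -0.12 by another probe). Tapbp, the peptide-loading bridge tapasin, gave -0.43 ± 0.18 and Tap2, of the peptide transporter, -0.36 ± 0.16. Macrophage markers gave medians of -0.67, -0.03 and -0.05. Their summed linear signal was 826, 935 and 862 times the 75th percentile in Irf4+/- cells and 503, 906 and 817 times in Irf4-/- cells. Csf1r was nonetheless lower in every pair, with 6.66, 6.69 and 6.22 against 5.92, 6.07 and 6.11, which did not overlap (-0.49 ± 0.13, adjusted p = 0.276). Mertk, a receptor for engulfing dead cells, gave -0.45 ± 0.16. Lysosome genes had a median of -0.16 (-0.47, -0.12 and 0.06 by experiment), with Psap, the saposin precursor gene, at -0.46 ± 0.17. Of the lipid list, Pltp, which encodes a phospholipid transfer protein, was lower in every pair, with 3.27, 4.48 and 3.82 against 1.88, 3.55 and 3.37 (-0.93 ± 0.21, adjusted p = 0.276), and Fasn, the fatty acid synthase gene, gave 0.66 ± 0.22.

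As a list, neutrophil markers were highest on the same Irf4-/- array of experiment A. The 14 neutrophil markers tested had a median difference of 1.19 in A, -0.18 in B and -0.04 in C. Of the fitted differences 9 were above 0 and 5 below, against 40.4% above 0 over all genes. At an unadjusted limma p under 0.05, 0 were higher and 1 was lower. In every pair, 1 was higher and 2 were lower. Their summed signal was 25.0, 24.9 and 26.3 times the 75th percentile in Irf4+/- cells and 61.0, 21.0 and 24.3 times in Irf4-/- cells. S100a8, an alarmin of neutrophils and monocytes, was at 2.39 on that array and between -0.02 and 0.50 on the other 5. Mpo, the myeloperoxidase gene, was at 1.54 there, against 0.17 in the Irf4+/- pool of A and -1.82 to -1.06 in B and C. Csf3r, the G-CSF receptor gene, gave -0.46 ± 0.18. The part of these markers in the experiment A values was not tested. Without experiment A, H2-Eb1 was at -1.48, H2-Ab1 at -1.21, H2-Aa at -1.21 and Ciita at -1.59, none of them called with 4 mock arrays left (adjusted p from 0.299 to 0.458).

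Markers of dendritic and B-lineage cells, which carry class II, were also below 0 while mostly dim. Of 13 conventional dendritic cell markers tested 11 were below 0 (median -0.45, 4 at an unadjusted p under 0.05), although the median was 0.415 with normexp, -0.35 with normexp without those very dim spots and 0.054 with slide as a fixed block. In the dimmest of the 4 groups of genes by level, 78.7% of genes were below 0, with a median of -0.28. Xcr1, a chemokine receptor of cross-presenting dendritic cells, was at -2.0, -2.37 and -2.53 against -3.48, -3.06 and -2.88 (-0.84 ± 0.25, adjusted p = 0.277). Itgae, which encodes CD103, gave -0.47 ± 0.15, and Zbtb46, a transcription factor gene that sets these cells apart, -0.27 ± 0.17. Itgax, which encodes CD11c, was bright, with 2.33, 2.68 and 2.30 against 2.14, 2.29 and 1.68 (-0.40 ± 0.18, adjusted p = 0.341). Its groups did not overlap, which held for 6.85% of all genes, but lay as close as 2.30 and 2.29. Its other kept probe gave -0.25, with -0.04, -0.65 and -0.07 in A, B and C. Itgax was called at 18 h of IL-4 (-0.97 ± 0.18). All 13 B-lineage markers tested were below 0, at a median level of -4.45 (median difference -0.39, 0.490 with normexp and -0.347 with normexp without those very dim spots), while Pax5, Ebf1, Rag1 and Rag2 were not above background. Cd79a gave -0.69 ± 0.27 and Jchain, well above background on 1 array of each genotype, -1.30 ± 0.49. The linear signals of the B-lineage list summed to 84.4, 104 and 74.0 times the 75th percentile in Irf4+/- cells. In Irf4-/- cells they summed to 49.6, 93.3 and 80.3 times. The sum of the dendritic cell list was 217, 169 and 184 against 122, 182 and 209 times. With median levels of -4.45 and -4.0, these lists owe their sums to their brighter members, and the sums say little of the dim markers. The share of either cell type in the class II difference was not tested.

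The markers of other cells gave no call, and most of these lists were dim. The median level was -0.87 for osteoclast and 0.54 for monocyte markers, and between -4.76 and -3.04 for the other lists. The genes named below are those with the smallest p, and each list also held members above 0. These were 4 of 11 plasmacytoid dendritic cell, 4 of 11 T and NK cell and 3 of 10 mast cell, basophil and eosinophil markers. They were also 2 of 7 erythroid, 3 of 12 osteoclast and 1 of 11 fibroblast markers, against 40.4% of all genes. Among plasmacytoid dendritic cell markers (median -0.12), Spib was at -1.10 ± 0.41 and Ly6d at -1.0 ± 0.31. Among T and NK cell markers (median -0.09, with Cd3d, Cd8a and Gzma not above background) Klrd1 was at -1.09 ± 0.35 and Cd3e at -0.72 ± 0.27. The mast cell protease gene Mcpt4 gave -1.18 ± 0.34 and Gata1 -0.31 ± 0.12, with Cpa3 and Ms4a2 not above background. Erythroid Hba-a1 and Epor gave -0.47 ± 0.18 and -0.54 ± 0.26, the fibroblast genes Col3a1 and Pdgfrb -0.84 ± 0.31 and -0.75 ± 0.33, and Clcn7 of the osteoclast list -0.38 ± 0.15. With normexp, all of these named genes but Clcn7 had a difference above 0, and with normexp without those very dim spots all were below 0. Among monocyte markers (median -0.04), the chemokine receptor gene Ccr2 was lower in every pair (-0.43 ± 0.16) and Treml4 was at 0.77 ± 0.29.

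Other genes of the IRF family gave no call. Of 9 family genes, Irf4 included, none had an unadjusted p under 0.05. Irf8, the closest relative of Irf4, was at 4.41, 4.46 and 4.13 against 4.16, 4.00 and 4.28 (-0.19 ± 0.18, adjusted p = 0.656). Irf5 gave -0.13 ± 0.15. Of the partner list, Nfatc1, whose product binds DNA beside IRF4 in lymphocytes, gave -0.30 ± 0.14. The 39 interferon-stimulated genes had a median of -0.14 with none at an unadjusted p under 0.05, Stat2 and Ddx58 giving -0.36 ± 0.23 and -0.44 ± 0.30. The 38 genes of the IL-4 signature had a median of -0.07 before any IL-4 was added.

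The remaining lists held no called gene in mock. Among inflammatory cytokines (11 tested, median -0.38, with 0.013 by normexp and -0.277 by normexp without those very dim spots), Il12a gave -0.97 ± 0.24 and Il27 -0.38 ± 0.17. Among the receptors, Tlr9, the sensor of unmethylated DNA, was at 1.52, 1.29 and 1.10 against 0.53, 0.83 and 1.00 (-0.52 ± 0.22), Tlr4, the sensor of lipopolysaccharide, at 0.26 ± 0.14, the eotaxin receptor gene Ccr3 at 0.32 ± 0.12 and the lectin gene Clec5a at 0.60 ± 0.19. Other kept probes gave -0.13 for Ccr3, and 0.59 and 0.19 for Clec5a. Clec5a and Ccr3 were called at 18 h of IL-4, at 0.97 ± 0.19 and 0.97 ± 0.12. Fcgrt, the neonatal Fc receptor gene, gave -0.59 ± 0.26, Fcgr3 -0.17 ± 0.12, Cd300lb -0.37 ± 0.14, and Pdcd1lg2, which encodes PD-L2, -0.92 ± 0.52. Iron handling gave 0.31 ± 0.13 for the transferrin receptor gene Tfrc and -0.68 ± 0.30 for Spic. Glycolysis had a median of 0.10 with the glucose transporter gene Slc2a1 at 0.42 ± 0.13 and Pdk1 at 0.34 ± 0.11, and oxidative phosphorylation 0.02 with Cycs at 0.43 ± 0.15 and Cox7b at 0.23 ± 0.10. The unfolded protein list had 23 of 24 genes above 0 (median 0.14), with Pdia6 at 0.29 ± 0.11 and Trib3 at 0.67 ± 0.28 (0.24 by its other probe). Gsr and Me1 of the NRF2 list gave 0.44 ± 0.17 and 0.31 ± 0.14, the retinoblastoma relative Rbl1 0.40 ± 0.15, and the integrin gene Itgb7 -0.37 ± 0.13. The values of the immediate early genes Fosb and Zfp36 did not overlap between the genotypes, which held for 6.85% of all genes. Zfp36 was at 2.05, 2.26 and 2.23 against 1.77, 1.90 and 1.71 (-0.38 ± 0.15). Fosb gave -0.83 ± 0.25, but 0.115 with normexp and 0.131 with slide as a fixed block.

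Genes near Irf4 gave no call. Within 10 Mb of Irf4 on its chromosome, 109 genes were tested and none was called. Of these, 7 were lower and 5 higher at an unadjusted p under 0.05, with a median of -0.06, the same as over all genes. The 3 with the smallest p were H1f6, a testis histone gene (-1.62 ± 0.43, with 0.27 after normexp and -0.68 without those very dim spots), Nrsn1 (-0.55 ± 0.18, with 0.29 and -0.50) and Mboat1 (0.87 ± 0.29), each with adjusted p of at least 0.276.

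The labels give both sexes for the pools, and the sex-linked genes ranged widely between experiments. By its brightest probe Xist, expressed from the inactive X, was at -0.14, -6.92 and 1.93 in Irf4+/- experiments A, B and C and at 1.17, -4.65 and 0.43 in Irf4-/- experiments (0.69 ± 0.86, with -0.35 and -0.07 by its other probes). Its signal was thus lowest in experiment B in both genotypes, where the Y-linked Eif2s3y was highest (1.94 and 2.19, against 0.35 to 1.75 elsewhere). Eif2s3y gave 0.48 ± 0.21, Ddx3y 0.42 ± 0.18, Kdm5d 0.40 ± 0.24 and Uty 0.30 ± 0.49, and the X-linked Kdm5c -0.17 ± 0.15, Ddx3x 0.08 ± 0.17, Eif2s3x -0.03 ± 0.14 and Kdm6a 0.02 ± 0.23. None was called.

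Some fitted differences below 0 were larger than those of the class II genes and were not called. Among genes well above background on all 6 mock arrays, and chosen after their values were seen, Cdk5r2 was at 4.05, 2.30 and 2.66 in Irf4+/- experiments A, B and C and at -0.63, 1.15 and 1.01 in Irf4-/- experiments (-2.49 ± 1.08, adjusted p = 0.341). Synpo, an actin-binding protein gene, gave -2.47 ± 0.96 and H1f10, a linker histone gene, -1.72 ± 0.72, with -3.37 in A against -1.07 in B and -0.70 in C. All 3 were lower in every mock pair, yet at 18 h of IL-4 experiment C was above 0 for each (2.45, 1.60 and 1.20) while A was below 0 (-3.64, -3.74 and -2.93). Ptger3, a prostaglandin E2 receptor gene, was at -0.31, -1.30 and -2.65 against -2.29, -3.44 and -3.58 (-1.68 ± 0.47, adjusted p = 0.276), and all of its pairs at 4 h and 18 h were below 0 as well.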

How the data were processed

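The authors scanned 1-colour (Cy3) Agilent arrays, per the file headers, and extracted them with Agilent Feature Extraction 9.5.1, per the submitters' processing notes. The deposited scanner files give each spot an intensity, per the file headers, after background subtraction and detrending, with a surrogate in place of the smallest signals. Arrays were not scaled to each other. The deposited log2 table holds values relative to the Irf4+/- mock array of the same letter (those columns are 0 throughout), and was used as an alternative. Its scaling is not stated.

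Each intensity was turned into log2, less the log2 of the array's 75th percentile. Control and outlier spots were left out and spots of a probe averaged. A probe was kept when well above background on all 3 arrays of a group (27489 of 41174), and a gene was read from its brightest kept probe. Probes were named through RefSeq by accession (23075), symbol (6582) or synonym (3077), 1449 kept the file's name and 6991 had none. limma 3.58.1 (R 4.3.3, statmod 1.5.0) fitted 6 group means with the experiment letter as a block over 18 arrays, with 10 residual degrees of freedom, so the IL-4 arrays set part of the error. Tests are two-sided, and the script was tested on simulated data. For 18 genes a mock value was missing and the fit dropped that array. The letters pair the samples by the design text (littermates per experiment), and deviations from the group means correlated at 0.50 to 0.73 between genotypes of a letter and condition. The mock and IL-4 arrays of a genotype and letter may share a pool, and were treated as independent given the letter, although their estimated correlation was 0.51. p-values then partly measure spread within pools. With 3 arrays a group, precision is limited by their number.

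The comparison and 41 gene lists were chosen with earlier results of these data known. Most named genes were picked by a rule. It took Irf4, called genes with 1 sign in all pairs, and the next by p up to 10 per direction. It also took called members of each list or else the 2 with the smallest p. The rest were the 3 with the smallest p within 10 Mb of Irf4, and all sex-linked genes. Further genes, such as Ccl2, Zbtb46 and other members of the class II list, are reported beside these and were not picked by the rule. A few genes that this rule names are not reported here. Plots used Python 3.11.15 and matplotlib 3.10.9.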

Additional observations from a re-analysis of the deposited data

How the results depend on the processing

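The 5 genes called in mock became 0 with no replicate block, with the replicate block by letter and condition, in fits of the mock arrays only (with or without the replicate block), with quantile normalization, with normexp, with no filter on dim probes (20829 genes) and in the authors' deposited table. They became 2 with the cell pool taken as random (H2-Eb1 and H2-Ab1), and 3 with normexp without far dimmer spots (H2-Eb1, H2-Ab1 and H2-Aa). With slide as a fixed block, where the genotype difference runs through a single slide of experiment C, 3 other genes were called (Zfp36l3, Slco2b1 and Slc15a2). Leaving out 1 array or pair gave 0 to 4. Median scaling kept the same 5. Over 24 alternatives H2-Eb1 ranged from -1.50 to -1.06 (adjusted p from 0.00912 to 1), H2-Ab1 from -1.40 to -0.91 (0.00938 to 1), H2-Aa from -1.27 to -0.98 (0.0215 to 1) and Ciita from -1.63 to -1.01, never called (0.0504 to 1). The class II median was below 0 in 24 of 24, from -0.767 to -0.077 (slide as a fixed block), and the DNA replication median above 0 in 24 of 24. The causes were not tested.

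Signs turned with normexp, though for none of these genes when far dimmer spots were left out, for Arrdc5 (0.237), Usp43 (0.632), Acvr2b (0.088), Il2 (0.206), Zhx2 (0.509), Spib (0.457), Pdcd1lg2 (0.57), Il12a (0.662), Fosb (0.115), Ddx3x (-0.067), Itgae (0.415), Ly6d (0.267), Jchain (0.633), Cd79a (0.49), Klrd1 (0.353), Cd3e (0.02), Mcpt4 (0.256), Gata1 (0.629), Hba-a1 (0.194), Epor (0.105), Col3a1 (0.41), Pdgfrb (0.286), H1f6 (0.269) and Nrsn1 (0.29). With slide as a fixed block they turned for Spib (0.647), Myc (-0.068), Cdh1 (-0.545), Tnfsf9 (-0.001), Il27 (0.132), Ccl12 (-0.599), Clec5a (-0.172), Fcgrt (0.205), Spic (0.154), Nop58 (-0.043), Bcl2l1 (-0.343), Fosb (0.131), Kdm5c (0.217), Xist (-2.212), Eif2s3x (0.059), Kdm6a (-0.249), Itgae (0.166) and Epor (0.239). Kdm6a also turned with slide as a random block (-0.112), Xist with no filter (-0.252) and Eif2s3x with median scaling (0.001). Normexp without far dimmer spots turned Cdh1 (-0.049), Uty (-0.055), Eif2s3x (0.062) and Kdm6a (-0.041), and the mean of kept probes turned Ddx3x (-0.048) and Eif2s3x (0.131). Leaving out arrays or pairs turned Xist (-0.361 to 1.79), Uty (-0.117 to 0.675), Ddx3x (-0.07 to 0.349), Eif2s3x (-0.166 to 0.081) and Kdm6a (-0.196 to 0.133).

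Usp43 and Zhx2 were well above background on none of the Irf4-/- mock arrays, which limits what their values show.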
